A study of Mus musculus with 2 samples.

Results

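Matrix metalloproteinases (MMPs), ADAMTS proteases and the tissue inhibitors of metalloproteinases (TIMPs) were described across the cells of the fetal femoral bone marrow. Members were taken by symbol: Mmp, Adamts or Timp followed by a number and at most 1 letter, so that the ADAMTS-like genes, which lack a protease domain, stayed out. The rule found 41 genes among the 22652 genes with a count in either library, of which 18 were Mmp, 19 Adamts and 4 Timp genes. All 41 had at least 1 unique molecular identifier (UMI, a tag that marks 1 captured mRNA) in the wild-type library, and 38 had one in the other.

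The data were 2 single-cell RNA-seq libraries from C57BL/6 embryos at E18.5, shortly before birth, made from marrow from which lineage-committed blood cells had been removed. The WT library came from wild-type embryos. The Bmx-CreER Wls library came from embryos in which tamoxifen, given to the mother, activates a Cre recombinase driven by the Bmx promoter, which is active in arterial endothelial cells, and there removes Wls, the carrier that Wnt ligands need for secretion. Neither the litter nor tamoxifen treatment of the WT embryos was named, and how many embryos were pooled was not given in the sources used here. With 1 library per genotype, no difference between them has a replicate check, and genotype, litter, treatment and library cannot be told apart.

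After filtering, 5736 WT cells with a median of 3128 UMIs and 6620 Bmx-CreER Wls cells with a median of 3067 UMIs remained. The libraries shared 48 of the kept barcodes. Joint clustering, with the members and cell cycle genes kept out of the genes that drove it, gave 22 classes. Classes with the ending "-like" were named by marker lists, and the others are called by their leading gene. Wls itself, the check of the genotype label, had 10 UMIs in 9 of 77 arterial endothelial-like cells in WT and 3 UMIs in 3 of 69 in Bmx-CreER Wls, a ratio of 0.261 (95% interval 0.0462 to 1.01). It was lower in the Bmx-CreER Wls library in 19 of the 22 classes, also in classes where Bmx-CreER is not known to act, with 0.832-fold (0.79 to 0.877) over all cells. In the other 3 classes Wls was higher, among them the Il17b-led chondrocyte-like class, at 33.7 and 54.7 CPM (1.62, 1.15 to 2.31). Whether the counted part of the transcript lies in the deleted part of the gene was not given in the sources used here.

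MMPs are zinc-dependent proteases that cut collagens and other proteins of the extracellular matrix. Most are secreted as inactive proenzymes, while the membrane-type MMPs sit on the cell surface, where MMP14 activates proMMP2 together with TIMP2. In the growing long bone, cartilage is laid down first and then invaded by vessels and by osteoclasts, which make MMP9, and the collagenase MMP13 is made by late hypertrophic chondrocytes and by osteoblasts at that front. ADAMTS proteases cut proteoglycans such as aggrecan and versican, or trim procollagens before they form fibrils. TIMPs bind to the active site of MMPs, and TIMP3 also inhibits several ADAMTS proteases.

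Levels are given as CPM, the UMIs of a gene per 1000000 UMIs of all cells of a class, with exact 95% Poisson intervals that cover counting error only. Of the 41 genes, 30 reached 100 UMIs in the 2 libraries together. Adamts6, Adamts20, Mmp19, Mmp25, Mmp28 and Timp4 had 20 to 99, and Adamts13, Mmp10, Mmp21, Mmp24 and Mmp27 had fewer than 20. Adamts13, Mmp21 and Mmp24 were at 0 in the Bmx-CreER Wls library. Mmp1a, Mmp1b, Mmp7, Mmp12 and Mmp20 had no row in either table. For 21 of the 30 genes that reached 100 UMIs, the class with the highest level was the same in both libraries. The exceptions were Adamts4, Adamts7, Adamts8, Adamts9, Adamts18, Mmp2, Mmp16, Mmp17 and Mmp23.

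**Figure D1:**
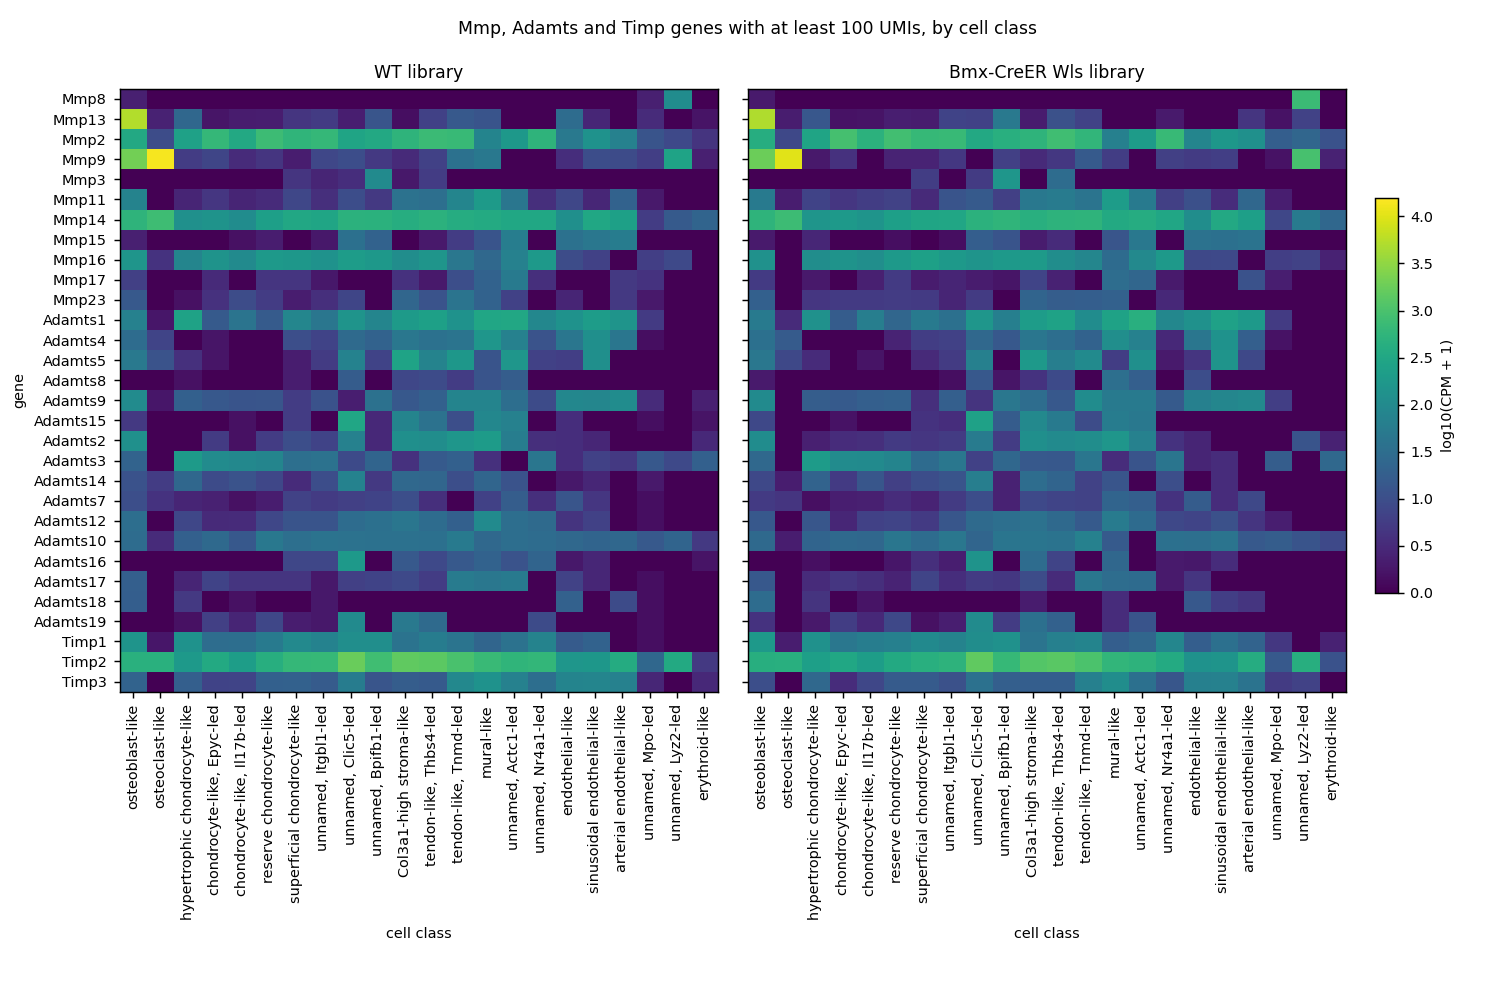
Level of the 30 members that reached 100 UMIs (rows) in the 22 cell classes (columns), with the WT library on the left and the Bmx-CreER Wls library on the right; colour gives log10(CPM + 1). The brightest cells of the map are Mmp9 in osteoclast-like cells and Mmp13 and Mmp9 in osteoblast-like cells, while Mmp14 and Timp2 run across all stromal and cartilage classes.

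Collagenases and stromelysins of the Mmp gene cluster on chromosome 9 (GENCODE M21, GRCm38) were held by different cells. Mmp13 (chr9:7272514-7283331), Mmp3 (chr9:7445822-7455975), Mmp10 (chr9:7502352-7510240), Mmp8 (chr9:7558456-7568485) and Mmp27 (chr9:7571396-7581885) lie in this order on the plus strand within 309 kb. Mmp13 was highest in osteoblast-like cells, Mmp3 in the Bpifb1-led class and Mmp8 in the Lyz2-led class. Mmp10 had 1 UMI in each library, and Mmp27 had 1 in WT and 2 in Bmx-CreER Wls. The 250 bases before the transcription start of the 3 expressed genes, from RefSeq on GRCm38, are shown because these neighbours led in different cell classes. Capitals mark a match to the AP-1 motif TGAGTCA or its reverse complement TGACTCA.
Mmp13 (chr9:7272264-7272513, plus strand): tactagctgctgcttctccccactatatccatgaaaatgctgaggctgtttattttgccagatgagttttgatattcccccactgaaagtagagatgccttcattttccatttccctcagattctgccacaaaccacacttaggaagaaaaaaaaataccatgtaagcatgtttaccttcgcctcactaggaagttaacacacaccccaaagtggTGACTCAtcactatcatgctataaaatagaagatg
Mmp3 (chr9:7445572-7445821, plus strand): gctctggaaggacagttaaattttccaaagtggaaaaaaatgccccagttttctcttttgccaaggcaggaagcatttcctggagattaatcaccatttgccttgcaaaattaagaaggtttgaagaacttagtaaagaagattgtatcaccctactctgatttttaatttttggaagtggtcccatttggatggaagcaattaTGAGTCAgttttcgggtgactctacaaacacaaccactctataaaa
Mmp8 (chr9:7558179-7558428, plus strand): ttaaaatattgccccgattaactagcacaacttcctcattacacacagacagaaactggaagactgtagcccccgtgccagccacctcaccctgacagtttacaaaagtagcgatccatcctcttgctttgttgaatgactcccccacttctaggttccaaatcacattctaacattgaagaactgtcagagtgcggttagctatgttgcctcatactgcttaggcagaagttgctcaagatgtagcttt
The match began 35 bases before the start of Mmp13 and 46 bases before that of Mmp3, and Mmp8 held none. Mmp13 and Mmp3 both held a match though they led in different classes, so the match did not follow the leading class. AP-1 is the dimer of Fos and Jun proteins. In the RefSeq table of promoters (250 bases before to 50 after the start), 5.19% of 32544 sequences held either form of the motif. Of the 27 members with an entry, Mmp3, Mmp10 and Mmp13 held it. The RUNX motif TGTGGT or its reverse complement ACCACA was in 16.7% of all promoters and in those of Mmp13, Mmp14, Mmp23 and Mmp27. A match is a description of letters, not of a bound factor.

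Mmp13, the main rodent collagenase, was highest in the osteoblast-like class, where a Cxcl12-rich stroma marker list came second (mean log2 rise 2.04 against 3.67). It reached 5138 CPM (5025 to 5253) there in WT and 5068 CPM (4927 to 5211) in Bmx-CreER Wls, and these cells held 98.5% and 97.3% of its UMIs. A UMI was seen in 211 of 324 WT cells and 104 of 176 Bmx-CreER Wls cells. With each cell thinned to 1000 UMIs, which left out 7 and 5 cells, the shares were 59.6% and 51.5%. In the erythroid-like class, which should lack the gene, 1 of 160 and 0 of 71 cells had a UMI; the count of 0 leaves room for a share of cells with a captured UMI, not of expressing cells, of up to 5.06% (exact Clopper-Pearson limit). Hypertrophic chondrocyte-like cells, the Col10a1-expressing cells of the growth plate, held little Mmp13: 24.6 CPM in 7 of 268 WT cells and 12.9 CPM in 5 of 319 Bmx-CreER Wls cells. In WT, 1 of these cells carried 26 of the 44 UMIs.

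Mmp9, the gelatinase known from osteoclasts, was highest in osteoclast-like cells, with 14020 CPM (13817 to 14225) in WT and 10327 CPM (10113 to 10545) in Bmx-CreER Wls. Of the osteoclast-like cells, 167 of 169 and 105 of 108 had a UMI, and they held 84.9% and 81.7% of all Mmp9 UMIs. Nearly all of the rest was in osteoblast-like cells, at 2052 CPM (1980 to 2125) in WT and 1798 CPM (1715 to 1884) in Bmx-CreER Wls. There, 122 of 324 and 57 of 176 cells had an Mmp9 UMI, against 2 of 160 and 1 of 71 erythroid-like cells. The signal in osteoblast-like cells was uneven: 4 WT cells held at least 50% of its 3111 UMIs, and 2 Bmx-CreER Wls cells held at least 50% of 1751, with 846 UMIs in 1 of them.

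Osteoclast RNA in the osteoblast-like cells was followed through Ctsk (cathepsin K) and Acp5, marker genes of osteoclasts. Ctsk was not confined to osteoclast-like cells. Col3a1-high stroma-like cells held it at 222 CPM in WT and 163 CPM in Bmx-CreER Wls, with Acp5 at 0.869 and 6.39 CPM. Ctsk at such levels therefore does not by itself measure osteoclast RNA. Osteoclast-like cells held 0.866 Mmp9 UMIs per Ctsk UMI in WT and 0.763 in Bmx-CreER Wls. Osteoblast-like cells held 26.1 and 23.0 of them, with Ctsk at 78.5 and 78.0 CPM against 16181 and 13531 CPM in osteoclast-like cells. Acp5 had 12 and 5 UMIs in all osteoblast-like cells. The 4 WT and 2 Bmx-CreER Wls cells that hold at least 50% of the Mmp9 UMIs had Mmp9 at 51779 and 63750 CPM, Mmp13 at 40899 and 61291 CPM, 3 and 1 UMIs of Ctsk and 0 and 0 of Acp5. In the other 320 and 174 cells, Mmp9 was at 1018 and 799 CPM, with 13.0 and 10.2 UMIs per Ctsk UMI. The cells richest in Mmp9 were also rich in Mmp13, and Ibsp had only 4 and 2 UMIs in them. The part of osteoclast RNA in the Mmp9 level of this class was not tested beyond these counts.

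Mmp9 was seen in a larger share of the osteoblast-like cells with Mmp13 than of those without it. In WT, 99 of the 211 cells with an Mmp13 UMI also had Mmp9, against 23 of 113 cells without one. In Bmx-CreER Wls the counts were 51 of 104 and 6 of 72. Cells without Mmp13 were the deeper ones, with median UMIs of 5618 against 3824 in WT and 6711 against 4354 in Bmx-CreER Wls. With both genes read after thinning to 1000 UMIs, Mmp9 was found in 39.2% of cells with and 11.7% of cells without Mmp13 in WT, and in 35.2% and 7.23% in Bmx-CreER Wls. Cells with Mmp13 also held more Mmp14 (792 against 174 CPM in WT, 852 against 196 in Bmx-CreER Wls) and Timp2 (638 against 210 and 640 against 205 CPM). Col1a1, the chain of type I collagen, was lower in them, at 31456 against 148015 CPM in WT and 26774 against 122848 CPM in Bmx-CreER Wls. Cxcl12, a chemokine that holds blood stem cells, was higher, at 2957 against 302 CPM and 2058 against 254 CPM. These cells were split by a measured gene, so the values describe a pattern within 1 class.

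**Figure D2:**
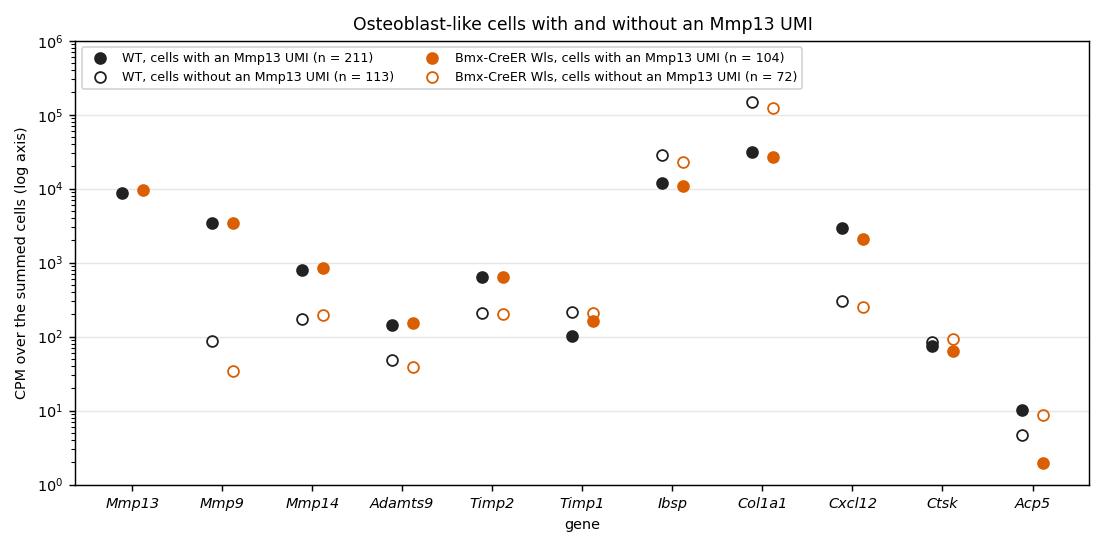
Level (CPM, log axis) of 11 genes summed over osteoblast-like cells with (filled) and without (open) an Mmp13 UMI, in WT (black) and Bmx-CreER Wls (orange). In both libraries Mmp9, Mmp14, Timp2 and Cxcl12 were higher and Col1a1 and Ibsp lower in the cells with Mmp13, while Ctsk stayed between 64.8 and 92.6 CPM in all 4 sets of cells.

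The study's own labels, which cover WT cells, also split these cells, called osteolineage cells (OLCs). The names of its numbered subclusters were matched through the cell shares it shows, and a name matched this way can be wrong. For the osteoclast-like class the matched names differed from the markers: 129 of its WT cells carried the name neutrophil progenitor and 32 the name multipotent HSPC, whereas its leading genes were osteoclast genes (Atp6v0d2, Acp5, Ctsk). The Thbs4-led tendon-like class differed too. Of its 410 WT cells, 290 were listed as eBMSC-1, the main fetal stromal population of the study, and 79 as mitotic stromal cells. The Col3a1-high stroma list came second in that class, after the tendon list. Of 202 cells listed as OLCs-1 and 102 listed as OLCs-2, 188 and 101 fell in the osteoblast-like class. In OLCs-1 the level of Mmp13 was 8485 CPM, in OLCs-2 it was 226 CPM. Mmp9 was at 3502 and 33.0 CPM, and Mmp14 at 845 and 143 CPM. Ibsp, a bone matrix gene, ran the other way, with 5750 CPM in the former and 36316 CPM in the latter, and Ctsk had 81.1 and 77.5 CPM. Of the OLCs-1, 90 cells held UMIs of both Mmp13 and Mmp9, against 3 of the OLCs-2. The 25 cells listed as aBMSC, the adult-enriched stromal cells of the study, had Mmp13 at 3924 CPM and Mmp9 at 3900 CPM. Of these cells, 13 lay in the osteoblast-like and 11 in the Thbs4-led tendon-like class.

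**Figure D3:**
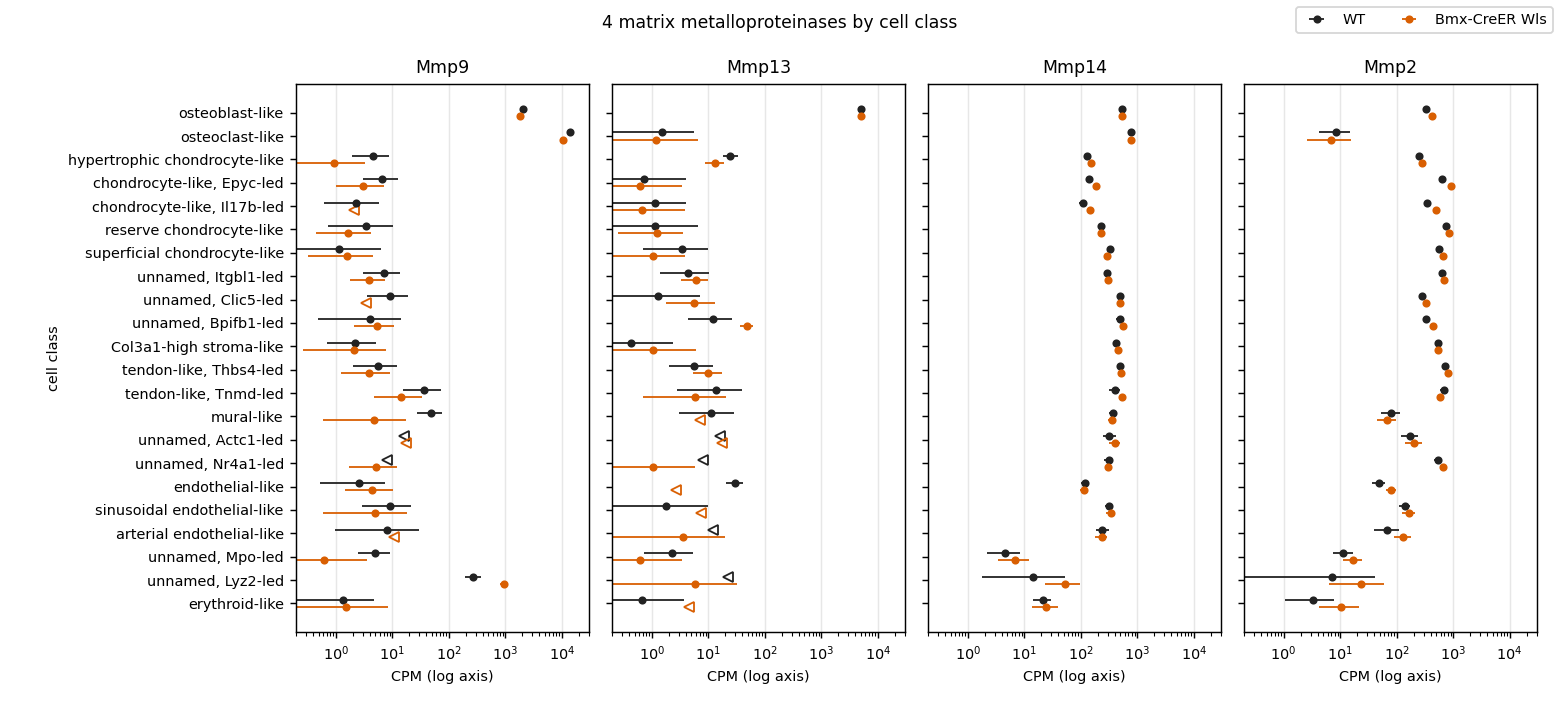
Level of Mmp9, Mmp13, Mmp14 and Mmp2 (CPM, log axis) in each class, with exact 95% Poisson intervals, in WT (black) and Bmx-CreER Wls (orange); open triangles mark classes with 0 UMIs at the level of 3 counts. Mmp9 stood above 1000 CPM in osteoclast-like and osteoblast-like cells and Mmp13 in osteoblast-like cells alone, with Mmp9 in the Lyz2-led class (270 and 935 CPM) next, whereas Mmp14 and Mmp2 were seen at 48 CPM or more in every stromal, cartilage and endothelial class.

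Mmp2, the other gelatinase, was spread over connective tissue cells. It was highest in reserve chondrocyte-like cells in WT, at 761 CPM (704 to 822), and in the Epyc-led chondrocyte-like class in Bmx-CreER Wls, at 917 CPM (871 to 964). In WT the Thbs4-led tendon-like class followed with 725 CPM and an overlapping interval. In Bmx-CreER Wls, reserve chondrocyte-like cells followed with 851 CPM (815 to 889), again with an overlapping interval, and the tendon-like class came next with 801 CPM. Osteoclast-like cells, in contrast, held Mmp2 at 8.47 and 7.03 CPM. Mmp9 and Mmp2 therefore led in different cells of the same tissue.

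Among the membrane-type MMPs, Mmp14 and Mmp16 carried most of the UMIs. Mmp14 (MT1-MMP, a collagenase of the cell surface) was highest in osteoclast-like cells, with 771 CPM (724 to 821) and 768 CPM (711 to 830), and was seen in 156 of 169 and 95 of 108 of them. Osteoblast-like cells had 534 and 539 CPM. Its lowest level was in the Mpo-led class, which matched both the granulocyte-monocyte progenitor and the mast cell list, with 4.56 and 6.89 CPM. Mmp16 (MT3-MMP) led in the Clic5-led class in WT, at 210 CPM (179 to 245), and in superficial chondrocyte-like cells in Bmx-CreER Wls, at 241 CPM (220 to 264). Mmp15 was seen in vessels and beyond them: arterial endothelial-like cells had 56.3 and 38.5 CPM, and endothelial-like cells 36.0 and 36.9 CPM. The Clic5-led class held 27 of the 141 Mmp15 UMIs in WT and 15 of 121 in Bmx-CreER Wls. Mmp15 was also found in the Actc1-led class at 59.1 and 46.3 CPM, a class of 57 and 41 cells that matched both the Schwann cell and the skeletal muscle list. Mmp17 had 54 and 57 UMIs and led in the Actc1-led class in WT (53.7 CPM, 10 UMIs) and in mural-like cells in Bmx-CreER Wls (31.2 CPM, 13 UMIs). Mmp25 had 12 UMIs in each library, with 6 and 5 of them in sinusoidal endothelial-like and 4 and 7 in endothelial-like cells.

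Among the stromelysins, Mmp3 was a gene of the Bpifb1-led class, which no marker list named. It had 99.7 CPM (74.0 to 131) there in WT and 161 CPM (141 to 185) in Bmx-CreER Wls, with 78.1% and 80.8% of its UMIs. Few cells held it: 13 of 188 and 48 of 384. Mmp11, known from stromal cells, was highest in mural-like cells, at 196 CPM (153 to 248) and 207 CPM (165 to 255). Mmp11 overlaps Chchd10 on the opposite strand, and whether strand was used in counting was not given in the sources used here. Mmp23 had 141 and 123 UMIs and led in the Tnmd-led tendon-like class in WT (40.9 CPM, 9 UMIs) and in Col3a1-high stroma-like cells in Bmx-CreER Wls (21.3 CPM, 20 UMIs). Mmp19 had 51 and 34 UMIs and Mmp28 had 8 and 12, too few to order the classes.

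Mmp8, the neutrophil collagenase, had 20 UMIs in WT and 129 in Bmx-CreER Wls, of which 15 and 128 were in the Lyz2-led class. The 2 libraries differed in what that class held. None of its 50 WT cells and 11 of its 59 Bmx-CreER Wls cells had UMIs of at least 2 of the 6 neutrophil markers, whose summed level was 0 CPM in WT and 14844 CPM in Bmx-CreER Wls. The macrophage list had 4424 and 3578 CPM. Of the 128 Mmp8 UMIs, 111 were in those 11 cells, and 31 of the 162 Mmp9 UMIs were. Over all cells of the library, the neutrophil markers had 52 and 2758 UMIs. The lineage depletion used an antibody to Gr-1, a surface marker of neutrophils, so how complete the depletion was in each library and what the embryos held cannot be told apart. The part of neutrophils in the difference of Mmp8 between the libraries was not tested beyond these counts.

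The ADAMTS proteases that cut proteoglycans led in different classes. Adamts1 was found in many classes. It was highest in the Actc1-led class, at 333 CPM (255 to 427) in WT and 451 CPM (357 to 563) in Bmx-CreER Wls, then in mural-like cells with 306 and 267 CPM. In hypertrophic chondrocyte-like cells it stood at 264 CPM (241 to 289) and 134 CPM. Adamts5, an aggrecanase of cartilage, lies 53.1 kb from Adamts1 on chromosome 16 (Adamts1 at chr16:85793827-85803113 and Adamts5 at chr16:85856173-85901828, both on the minus strand), and led in another class. It led in Col3a1-high stroma-like cells, with 272 CPM (252 to 295) and 187 CPM (160 to 216), and its level in hypertrophic chondrocyte-like cells was 2.80 and 2.31 CPM. Adamts4, the other main aggrecanase, was highest in mural-like (157 and 118 CPM) and sinusoidal endothelial-like cells (121 and 136 CPM), whose intervals overlapped. Adamts9 was spread over osteoblast-like, Tnmd-led tendon-like and all 3 endothelial classes at 66.8 to 109 CPM. It led in arterial endothelial-like cells in WT (109 CPM, 71.5 to 158) and in the Tnmd-led class in Bmx-CreER Wls (109 CPM, 76.8 to 149), and both intervals overlapped those of the classes that followed. Adamts8, next to Adamts15 on chromosome 9, had 47 and 55 UMIs and led in the Actc1-led class in WT (16.1 CPM, 3 UMIs) and in mural-like cells in Bmx-CreER Wls (33.6 CPM, 14 UMIs). Adamts20 had 27 and 33 UMIs.

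Procollagen N-proteinases, which remove the amino-terminal propeptide of fibrillar collagens, led in cartilage, mural and stromal cells. Adamts3, which can process type II procollagen, was highest in hypertrophic chondrocyte-like cells, at 190 CPM (170 to 211) and 201 CPM (182 to 220), followed by the Epyc-led (105 and 104 CPM), Il17b-led (92.02 and 103 CPM) and reserve (79.8 and 76.3 CPM) chondrocyte-like cells, in the same order in both libraries, with overlapping intervals among the last 3. It was seen in 65.3% and 66.1% of hypertrophic chondrocyte-like cells, and in 16.9% and 22.7% of them after thinning to 1000 UMIs, since these cells are deep. Adamts2, which processes type I and III procollagen, had its highest levels in mural-like cells (199 and 161 CPM) and was at 125 and 108 CPM in osteoblast-like and 124 and 120 CPM in Col3a1-high stroma-like cells. Adamts14 was highest in the Clic5-led class, at 72.1 CPM (54.5 to 93.6) and 61.5 CPM (46.3 to 80.0).

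Adamts14, Adamts15, Adamts16 and Adamts19 had their highest level in the Clic5-led class in both libraries. No marker list named these 245 WT and 254 Bmx-CreER Wls cells, but 148 of the 149 WT cells that the study lists as eBMSC-2, an embryo-enriched stromal population, lay in it, together with 81 of the 940 cells listed as eBMSC-1 and 13 listed as mitotic stromal cells. Adamts15, a versicanase, had 309 CPM (271 to 351) and 254 CPM (222 to 289), and Adamts16 had 188 CPM (159 to 221) and 144 CPM (120 to 171), with 65.5% and 68.3% of its UMIs in this class. Adamts16 was seen in 83 and 79 of the cells, and 23 cells of each library held at least 50% of its UMIs, with at most 6 UMIs in any cell. Adamts19 had 103 CPM (81.7 to 128) and 104 CPM (83.9 to 127). In the listed eBMSC-2 cells, Adamts15 had 350 CPM and Adamts16 253 CPM, against 83.1 and 22.2 CPM in the listed eBMSC-1 cells. The same class led for Timp2.

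The remaining ADAMTS genes were low or broad. Adamts12, which can cut cartilage oligomeric matrix protein (COMP), was highest in mural-like cells with 101 and 55.2 CPM, and Adamts7, its closest relative, had 89 and 94 UMIs and led in the Actc1-led class in WT (16.1 CPM, 3 UMIs) and in mural-like cells in Bmx-CreER Wls (21.6 CPM, 9 UMIs). Adamts10, which binds fibrillin microfibrils, was broad and was highest in the Tnmd-led tendon-like class, with 50.01 and 68.6 CPM. Adamts17 led in the same class with 54.6 and 42.9 CPM. Adamts18 had 61 and 57 UMIs, of which 26 and 29 were in osteoblast-like and 23 and 15 in endothelial-like cells. Adamts6 had 39 and 40 UMIs, with 12 in hypertrophic chondrocyte-like cells in each library. Adamts13, the von Willebrand factor protease of liver stellate cells, had 3 UMIs in WT and 0 in Bmx-CreER Wls.

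The inhibitors differed among themselves by cell class. Timp2 was the broadest, with its highest levels in the Clic5-led class, at 1753 CPM (1661 to 1849) and 1517 CPM (1437 to 1599), followed by Col3a1-high stroma-like cells at 1475 CPM (1425 to 1525) and 1189 CPM (1121 to 1261) and Thbs4-led tendon-like cells at 1409 CPM (1339 to 1481) and 1312 CPM (1251 to 1376). The last 2 classes stood in this order in WT, with overlapping intervals, and in the opposite order in Bmx-CreER Wls. Osteoclast-like cells had 466 and 452 CPM and osteoblast-like cells 460 and 432 CPM. In erythroid-like cells, Timp2 was at 3.98 and 10.5 CPM. Timp1 was highest in osteoblast-like cells, at 150 CPM (131 to 171) and 185 CPM (159 to 214), with hypertrophic chondrocyte-like cells next in WT at 139 CPM and the Bpifb1-led class next in Bmx-CreER Wls at 131 CPM. Timp3 led in mural-like cells, at 137 CPM (102 to 182) and 115 CPM (85.0 to 153), followed in WT by the Tnmd-led tendon-like class with 90.9 CPM and in Bmx-CreER Wls by sinusoidal endothelial-like cells with 69.3 CPM. Timp4 led in endothelial-like cells, with 18 of 31 and 44 of 61 UMIs, while arterial endothelial-like cells held 0 and 0 and sinusoidal endothelial-like cells 0 and 1. Timp1, Timp3 and Timp4 each overlap a synapsin gene (Syn1, Syn3, Syn2) on the other strand, whose own UMIs numbered 5 to 46 per library.

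Set against the proteases, the inhibitors were scarcest in osteoclast-like and osteoblast-like cells. Osteoclast-like cells held 0.031 Timp UMIs per Mmp or Adamts UMI in WT and 0.041 in Bmx-CreER Wls, and osteoblast-like cells 0.072 and 0.074. The value over all cells was 0.254 and 0.295. It was highest in the Clic5-led class, at 0.897 and 0.840. UMIs of different genes are not captured alike, so the value compares classes and is no ratio of proteins. In osteoclast-like cells the summed level was 14813 and 11110 CPM for the Mmp, 30.8 and 30.5 CPM for the Adamts and 467 and 453 CPM for the Timp genes, so that the low value there came with a high Mmp9, while Timp2 was near its level in osteoblast-like cells.

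**Figure D4:**
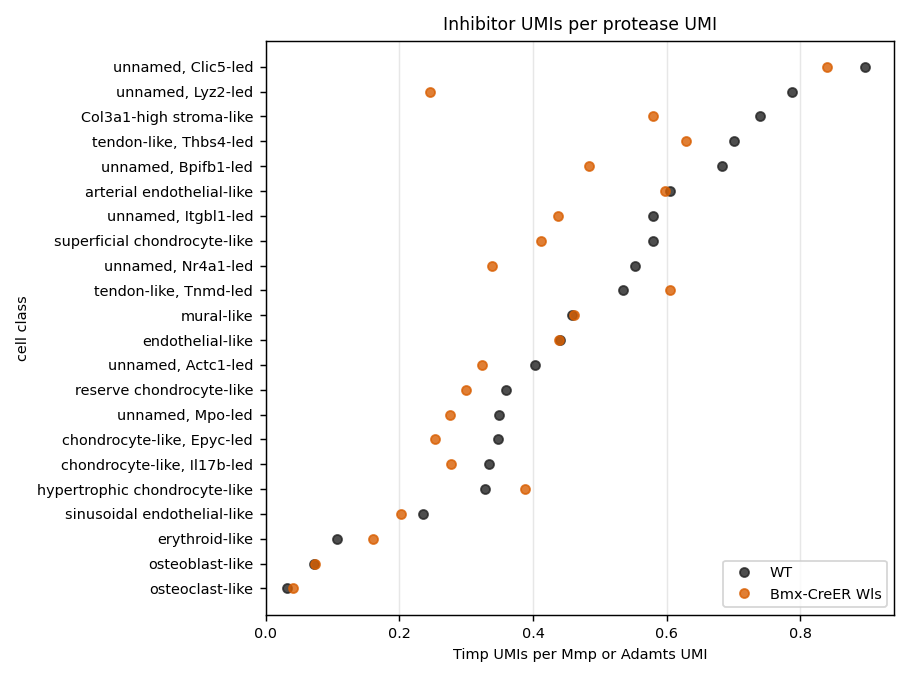
Timp UMIs per UMI of any Mmp or Adamts gene in each class, ordered by the WT library, with WT in black and Bmx-CreER Wls in orange. Osteoclast-like (0.031 and 0.041) and osteoblast-like cells (0.072 and 0.074) lie at the bottom, the Clic5-led class (0.897 and 0.840) at the top, and the Lyz2-led class shows the widest gap between libraries.

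The 36 genes of the pathway list (activators and surface regulators, ADAM and ADAMTS-like relatives, and substrates) gave the surroundings of these proteases. Pcsk6, a proprotein convertase, and Serpine2, a serpin that blocks plasminogen activators and thrombin, were both highest in osteoblast-like cells, Pcsk6 at 355 and 416 CPM and Serpine2 at 3766 and 3379 CPM. Plau, the urokinase that generates plasmin, led in sinusoidal endothelial-like cells with 333 and 371 CPM, and Plaur, its receptor, in the Lyz2-led class with 161 and 277 CPM. Reck, a membrane inhibitor of MMPs, led in the Bpifb1-led class with 211 and 180 CPM, where Bsg, the MMP inducer basigin, was also highest (1796 and 2247 CPM). Cd44, a hyaluronan receptor that docks MMPs, was highest in the Clic5-led class, at 1013 and 1021 CPM. Acan, the substrate of the aggrecanases, was highest in the Il17b-led chondrocyte-like class in WT (8258 CPM) and the Epyc-led one in Bmx-CreER Wls (8777 CPM). In each of these classes and libraries, Adamts4 and Adamts5 had at most 1 UMI.

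Between the libraries, levels were compared in the 21 classes with at least 50 cells in each, for genes with at least 20 UMIs over both. Of 251 pairs of a member and a class, 33 (13.1%) were at least 1.5-fold higher and 22 (8.76%) at least 1.5-fold lower in Bmx-CreER Wls. Over all 166089 pairs of a gene and a class the shares were 9.87% and 8.83%. The median ratio of the member pairs was 1.01, and that of all pairs 0.996. With a 95% interval that also left out 1, 18 pairs were higher (7.17%, against 3.95% of all pairs) and 11 lower (4.38%, against 3.46%). These intervals hold no spread between animals. In the Itgbl1-led class, 2 of 14 members were past the fold upward and 1 downward, beside 8.45% and 7.52% of all genes there. Reserve chondrocyte-like cells had 2 of 12 upward and 0 downward (11.2% and 6.88% of all genes), superficial chondrocyte-like cells 0 and 1 of 9 (9.06% and 11.2%), and the Epyc-led chondrocyte-like class 0 and 0 of 9 (7.08% and 9.65%). Thbs4-led tendon-like cells had 2 and 0 of 20 (9.58% and 6.76%), and the Tnmd-led class 2 and 2 of 13 (17.8% and 12.8%). The Clic5-led class had 1 and 3 of 19 (8.99% and 7.66%), osteoclast-like cells 1 and 1 of 5 (9.09% and 8.56%), and the Mpo-led class 1 and 1 of 5 (6.63% and 5.6%). Sinusoidal endothelial-like cells had 2 and 0 of 11 (9.39% and 9.85%), and arterial endothelial-like cells 1 and 1 of 7 (12.5% and 11.1%). Mural-like cells had 1 and 3 of 14 (11.6% and 12.6%), and erythroid-like cells 0 and 0 of 2 (8.07% and 8.46%).

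Summed over all cells of a class, Mmp9 and Mmp13 stayed within the fold between the libraries in osteoclast-like and osteoblast-like cells. Mmp13 in osteoblast-like cells had a ratio of 0.986 (0.952 to 1.02), and Mmp9 had 0.737 (0.718 to 0.756) in osteoclast-like and 0.876 (0.826 to 0.929) in osteoblast-like cells. For Mmp9 in osteoblast-like cells, 1 cell held 479 of the 3111 WT UMIs and 1 cell held 846 of the 1751 Bmx-CreER Wls UMIs. The Bmx-CreER Wls cell held a larger part of the UMIs of its library in this class than the WT cell did. The ratio is therefore lower without these cells, and the value within the fold holds with them counted. Without the 4 WT and 2 Bmx-CreER Wls cells richest in Mmp9, its level in osteoblast-like cells was 1018 CPM in WT and 799 CPM in Bmx-CreER Wls. The interval of the ratio does not cover such unevenness. Over the whole libraries the differences were wider: Mmp9 stood at 964 CPM in WT and 442 CPM in Bmx-CreER Wls, and Mmp13 at 355 and 208 CPM, where 6.38% of all genes were past the fold upward and 8.61% downward. The share of cells in the classes differed in the same direction. Osteoclast-like cells were 2.95% of the WT and 1.63% of the Bmx-CreER Wls cells, and osteoblast-like cells 5.65% and 2.66%. Adamts5 stood at 45.6 and 20.8 CPM over the libraries, with 10.4% and 3.44% of the cells in the Col3a1-high stroma-like class. Within that class Adamts5 was lower in Bmx-CreER Wls too, at 272 and 187 CPM. Mmp2 stood at 329 and 481 CPM over the libraries, with 6.56% and 14.4% reserve chondrocyte-like cells, and at 761 and 851 CPM within that class. The shares of cells are those of 1 depleted cell suspension each, with no replicate.

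In cartilage, of the pairs past the fold, Adamts1 in hypertrophic chondrocyte-like cells had the most UMIs. Mmp2 in the Epyc-led class (1.45, 1.33 to 1.58) and the Il17b-led class (1.46, 1.31 to 1.63) and Timp2 in superficial chondrocyte-like cells (0.706, 0.634 to 0.788) had more UMIs and intervals that left out 1, but lay inside the fold. Adamts1 was at 264 CPM (472 UMIs) in WT and 134 CPM (290 UMIs) in Bmx-CreER Wls, a ratio of 0.506 (0.435 to 0.586). It was seen in 124 of 268 and 95 of 319 cells, and without the cell richest in it in each library the ratio was 0.510. Of the 14 members here, 1 was past the fold upward and 2 downward, beside 10.7% and 7.32% of all genes, and the hypertrophic marker list itself stood at 46409 and 38779 CPM. Superficial chondrocyte-like cells had a ratio of 0.628 (0.459 to 0.864), whereas the Il17b-led chondrocyte-like class had 1.56 (1.13 to 2.16). In that class Timp1 (ratio 1.89, 1.34 to 2.697) and Adamts10 (1.78, 1.03 to 3.12) were higher in Bmx-CreER Wls too, among 4 of 12 members past the fold upward and 1 downward, beside 9.73% and 6.9% of all genes there. Mmp13 in hypertrophic chondrocyte-like cells had a ratio of 0.524 (0.314 to 0.860), and 0.777 (0.376 to 1.598) without the richest cell of each library.

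In vessels, Mmp2 was higher in Bmx-CreER Wls in endothelial-like cells, at 48.6 and 80.0 CPM (ratio 1.65, 1.17 to 2.33), and in arterial endothelial-like cells, at 68.3 and 129 CPM (1.89, 1.04 to 3.59, and 0.953 to 4.00 without the richest cells). In sinusoidal endothelial-like cells Mmp2 was at 139 and 163 CPM (1.18, 0.835 to 1.66). The stromal collagens Col1a2 (276 and 455 CPM) and Col3a1 (178 and 325 CPM) were past the fold upward in endothelial-like cells too, while in arterial endothelial-like cells they were past it downward, and their part in the Mmp2 values was not tested. Timp4 in endothelial-like cells was at 15.1 and 38.7 CPM (2.57, 1.45 to 4.72), with UMIs in 15 of 356 and 28 of 303 cells. In this class 2 of 14 members were past the fold upward and 1 downward, beside 7.93% and 7.65% of all genes. Mmp13 had 35 UMIs in WT endothelial-like cells, 32 of them in 1 cell, and 0 in Bmx-CreER Wls, at least 11.1-fold lower against a floor of 3 counts over the class; without that cell 3 UMIs remain. In mural-like cells, Adamts12 was at 101 and 55.2 CPM (0.547, 0.310 to 0.949).

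In stromal cells, 4 of 22 members were past the fold upward in Col3a1-high stroma-like cells, beside 10.9% of all genes, and 0 downward, beside 8.32%. Mmp16 was at 113 and 194 CPM (1.72, 1.41 to 2.08), Adamts9 at 13.5 and 30.9 CPM (2.29, 1.33 to 3.94), Adamts16 at 13.9 and 29.8 CPM (2.15, 1.25 to 3.68) and Adamts3 at 3.04 and 13.9 CPM (4.56, 1.69 to 13.5). Clustered at resolution 0.5, Mmp16 and Adamts9 had ratios of 1.13 and 1.35, and with 30 principal components Adamts16 had 1.27, all inside the fold. In the Bpifb1-led class, 4 of 16 members were past the fold upward and 1 downward, beside 12.6% and 10.4% of all genes. Mmp3 there had a ratio of 1.62 (1.19 to 2.25), Mmp13 one of 4.02 (1.75 to 11.4), with 32 of its 64 Bmx-CreER Wls UMIs in 1 cell, and Adamts15 had 1 and 21 UMIs (7.91, 1.27 to 327). The superficial chondrocyte markers of that class were at 5857 and 1973 CPM, and their part in these differences was not tested. In the Clic5-led class Mmp15 was lower, at 34.8 and 16.8 CPM (0.482, 0.238 to 0.939). Tendon-like cells led by Thbs4 had Mmp11 at 33.0 and 54.7 CPM (1.66, 1.10 to 2.55), and Mmp3 with 5 and 38 UMIs, where 35 of the 38 came from 1 cell and the ratio without the richest cells was 0.843 (0.113 to 6.29). In the Itgbl1-led class Mmp11 had 3 and 27 UMIs, a ratio of 4.42 (1.36 to 22.8).

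In bone and blood classes, Adamts12 was lower in osteoblast-like cells, at 31.7 and 13.3 CPM (0.422, 0.210 to 0.791), and so was Timp3, at 20.4 and 9.24 CPM (0.452, 0.189 to 0.973, and 0.182 to 1.05 without the richest cells). Here 1 of 21 members was past the fold upward and 2 downward, beside 8.55% and 8.08% of all genes. Timp2 was lower in the Nr4a1-led class, at 604 and 372 CPM (0.616, 0.520 to 0.731), where Timp3 had 12 UMIs in each library (0.384, 0.158 to 0.935), with 0 and 2 of 9 members past the fold beside 12.2% and 12.6% of all genes, and whose leading gene is an immediate-early gene. It was also lower in the Mpo-led class, at 24.2 and 13.8 CPM (0.571, 0.330 to 0.954). In the Lyz2-led class Mmp8 had a ratio of 6.75 (3.94 to 12.4) and Mmp9 of 3.46 (2.41 to 5.09), beside the neutrophil markers given above, and 2 of 3 members were past the fold upward and 0 downward, beside 13.4% and 15.8% of all genes. For Mmp9 there, 33 of 37 WT UMIs and 120 of 162 Bmx-CreER Wls UMIs lay in 1 cell each. Of these 162 UMIs, 131 lay outside the cells with at least 2 neutrophil markers. Ctsk in this class was at 21.9 CPM in WT and 346 CPM in Bmx-CreER Wls. The part of neutrophils or of osteoclast RNA in the Mmp9 difference was not tested.

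**Figure D5:**
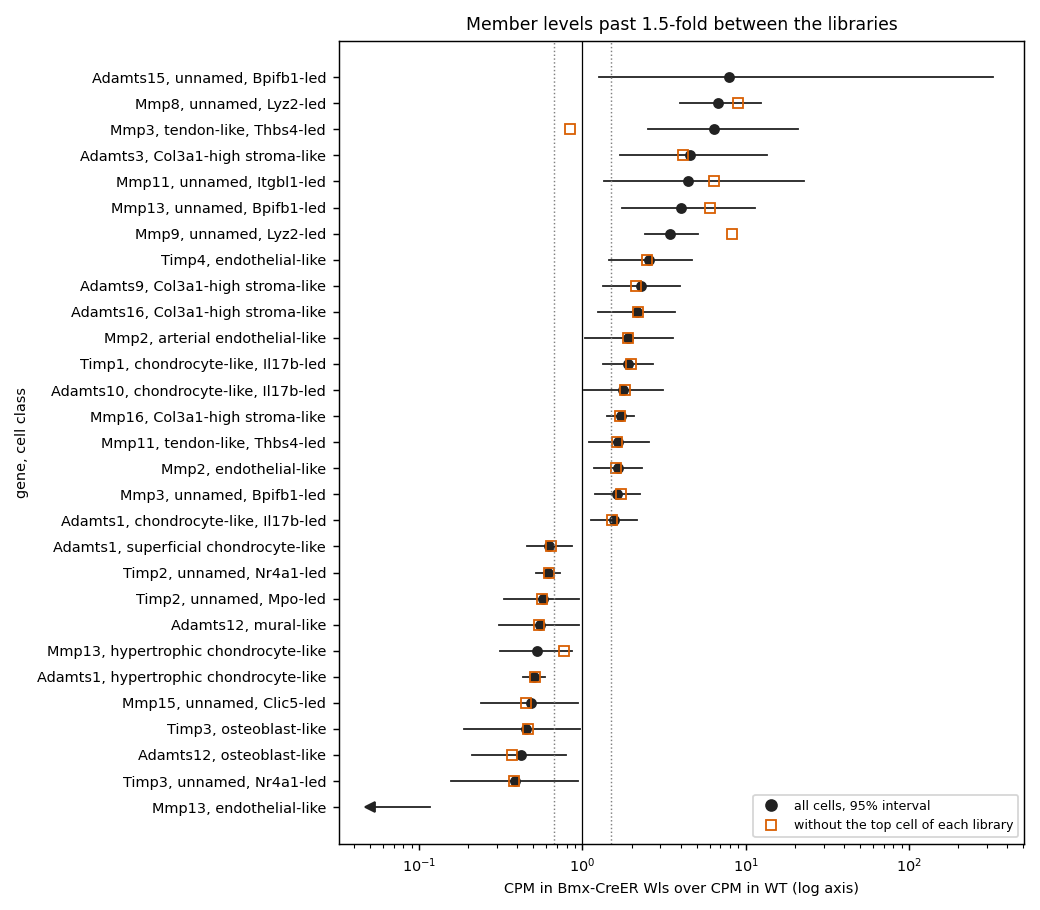
Ratio of CPM in Bmx-CreER Wls over WT (log axis) for the 29 pairs of a member and a class that were past 1.5-fold with an interval that leaves out 1; black points and lines are all cells with 95% intervals (counting error only), orange squares the ratio without the richest cell of each library, dotted lines 1.5-fold, and the arrow a count of 0. Without the richest cells, 27 of these pairs kept the fold and 24 also an interval that leaves out 1; Mmp3 in Thbs4-led tendon-like cells and Mmp13 in hypertrophic chondrocyte-like cells moved inside the fold.

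Of the 493 pairs of a pathway gene and a class, 64 (13.0%) were past the fold upward and 49 (9.94%) downward, beside 9.87% and 8.83% of all pairs. In the 6 classes with most member UMIs, 20 of 164 pairs were past the fold with an interval that left out 1, 11 higher and 9 lower. In osteoclast-like cells, 2 and 5 of 21 pathway genes were past the fold upward and downward (9.09% and 8.56% of all genes), in osteoblast-like cells 4 and 1 of 28 (8.55% and 8.08%), in the Clic5-led class 2 and 2 of 28 (8.99% and 7.66%) and in Thbs4-led tendon-like cells 2 and 2 of 31 (9.58% and 6.76%). Osteoclast-like cells held Adam8, a metalloprotease of osteoclasts and leukocytes, at 29.3 and 84.3 CPM (ratio 2.88, 1.92 to 4.39). They also held Col10a1 at 7.70 and 86.7 CPM and Col2a1 at 1246 and 644 CPM, genes of cartilage that are not known from osteoclasts, and Acan, Comp, Col1a1 and Col1a2 were lower there in Bmx-CreER Wls with ratios of 0.476 to 0.635. In osteoblast-like cells Adam10, a sheddase of surface proteins, was lower at 156 and 104 CPM (0.663, 0.520 to 0.841), and the cartilage genes Comp (85.7 and 276 CPM) and Col2a1 (2501 and 3774 CPM) were higher. In Col3a1-high stroma-like cells, 3 of 32 pathway genes were past the fold upward and 2 downward, beside 10.9% and 8.32% of all genes in that class. Among those higher were Plat, the tissue plasminogen activator, at 27.8 and 58.6 CPM (2.11, 1.44 to 3.07) and Plaur, the urokinase receptor, at 15.2 and 29.8 CPM (1.96, 1.15 to 3.32). Acan was lower (0.648, 0.503 to 0.828). In the Clic5-led class Pcsk6 (254 and 164 CPM) was lower, and Acan (125 and 213 CPM) and Col10a1 (14.2 and 34.6 CPM) higher. Thbs4-led tendon-like cells had Adamtsl5 at 3.67 and 12.3 CPM and Comp at 137 and 228 CPM. The Itgbl1-led class had no such pair with an interval that left out 1. Of 24 pathway genes there, 0 were past the fold upward and 2 downward (8.45% and 7.52% of all genes).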

How the data were processed

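BD Rhapsody whole-transcriptome libraries were made from lineage-depleted marrow cells of WT and Bmx-CreER Wls embryos. The authors deposited, per library, a table of raw UMI counts per gene and cell barcode, with no normalization. The submitters' processing notes name bcl2fastq 2.19.1.403, UMI-tools 1.0.1, STAR 2.7.1a, featureCounts 1.6.4 of Subread and mm10. Whether featureCounts used strand was not given in the sources used here, so reads of genes that overlap on opposite strands may be shared.

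Barcodes with 200 to 5000 genes and under 30% mitochondrial UMIs were kept, as in the study's methods, which removed 262 and 205 barcodes. Depth was 22708005 UMIs over 5998 WT barcodes and 24704991 over 6825 Bmx-CreER Wls barcodes. Scrublet called 39 and 0 doublets, so its threshold did not work in the second library, and doublets were kept. Both libraries were clustered together (1988 variable genes without the members and cell cycle genes, 11 principal components, 20 neighbours, Leiden resolution 1.0, leidenalg 0.10.2), and clusters were named where at least 3 markers of a list were raised 2-fold, the mean rise of the list was high enough and no unrelated second list came close (a parent list, such as endothelial for sinusoidal endothelial, did not count). A rebuilt name may differ from the study's.

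Levels are summed UMIs per 1000000, with exact Poisson intervals. Shares of cells carry Clopper-Pearson intervals, and ratios conditional binomial ones, all at 95% and for counting error only. A count of 0 was read against 3 counts. No test was run, since each group is 1 library. The ratio interval was tried on simulated independent Poisson counts, the model that it assumes. That run cannot show how the interval fares where few cells hold most UMIs of a gene. Every member is accounted for by its UMIs, those with at least 100 UMIs with their leading classes, and pairs past 1.5-fold with at least 20 UMIs and an interval leaving out 1 are named; pathway genes were named by the same rule in the 6 classes with most member UMIs. Some pathway pairs counted there are not reported by name here. Members and lists were chosen with earlier results of these data known. Coordinates are from GENCODE M21 and promoters from RefSeq, both on GRCm38, the assembly of mm10. Alternatives are given in the closing section.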

Additional observations from a re-analysis of the deposited data

Results flagged for a closer look

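Adamts1 was flagged because its ratio between the libraries, Bmx-CreER Wls over WT, lay on opposite sides of 1 in different cartilage classes. The ratio was 0.506 in hypertrophic chondrocyte-like, 0.628 in superficial chondrocyte-like and 1.56 in Il17b-led chondrocyte-like cells. Under other ways of processing, the superficial ratio ranged from 0.627 to 0.775 and was past the fold in 4 of 7. The Il17b-led ratio ranged from 1.34 to 1.56 and was past the fold in 6 of 7. With 1 library per genotype the difference between classes was not tested.

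Mmp13 was flagged for the same reason outside its main class. Its ratio was 4.02 in the Bpifb1-led class, 0.524 in hypertrophic chondrocyte-like cells and 0 in endothelial-like cells, where the Bmx-CreER Wls library had 0 UMIs. This difference was not tested either, and 1 cell held 32 of 64, 26 of 44 and 32 of 35 UMIs in the library with the higher level of the 3 classes.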

How the results depend on the processing

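Each group is 1 library, so no replicate could be left out, and none of these intervals measures variation between embryos. No paired analysis was possible because each group holds 1 sample. For 30 members in 2 libraries, giving 60 leading classes, 45 to 59 stayed the leading class under the 8 other ways of clustering, filtering or scaling, with the fewest under 30 principal components, where 12 of the 60 leading levels moved over 1.5 times, against 7 with each library clustered alone. Thinned to 1000 UMIs, 42 of 60 classes with the highest share of cells stayed in front. The 55 pairs of a member and a class past the fold became 28 with at least 50 UMIs, 185 with no minimum beyond 1 UMI in each library and 18 at a fold of 2. They numbered 54 under TMM scaling and 56 under median of ratios scaling, with 51 and 53 of the 55 shared. Under 30 principal components 64 were past the fold, of which 32 were shared with the 55 in the same direction. Leaving out the cell richest in each gene, an alternative chosen after seeing the data, left 47. The 317 times that a class held a member above its library level became 307 to 330. All 29 named pairs kept their direction wherever at least 20 UMIs were left. Mmp3 in Thbs4-led tendon-like cells had a ratio of 0.843 (0.113 to 6.29) without the richest cells. That value rests on 3 UMIs left in each library, too few to give a direction. In Col3a1-high stroma-like cells Mmp16 ranged from 1.13 to 1.73, Adamts9 from 1.35 to 2.73 and Adamts16 from 1.27 to 2.20. Mmp9 in the Lyz2-led class ranged from 3.46 to 8.19, Timp3 in the Nr4a1-led class from 0.382 to 0.696, Adamts15 in the Bpifb1-led class from 3.14 to 8.39, Timp2 in the Mpo-led class from 0.565 to 0.973, Timp1 in the Il17b-led class from 1.86 to 5.43, Adamts3 in Col3a1-high stroma-like cells from 1.95 to 5.45, Adamts12 in osteoblast-like cells from 0.203 to 0.428, Mmp2 in endothelial-like cells from 1.17 to 2.03 and Adamts1 in hypertrophic chondrocyte-like cells from 0.477 to 0.594.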
